A study of Mus musculus with 3 samples.

Results

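The Frizzled and Lrp genes encode the cell-surface receptors of WNT signalling. Of the 21887 protein-coding genes of the mouse annotation, 10 were taken by name: the Frizzled genes Fzd1 to Fzd8 and the co-receptor genes Lrp5 and Lrp6. FOXF1, a forkhead transcription factor of the lung mesenchyme and vessels, was mapped at embryonic day 18.5 in whole lungs of wild-type C57BL/6 embryos by chromatin immunoprecipitation and sequencing. There were 2 biological replicates, each a pool of lungs, and 1 control of 2% input DNA without antibody. The labels give n = 3 for the pooled lungs and do not say whether this holds for each pool. The lungs were fixed in 1% formaldehyde, their chromatin was cut with micrococcal nuclease and sonicated, and the input entered only through the peak calls, as no list of its own was analysed here. Each deposited entry is a peak summit, 1 base wide, scored by the authors with the −log10 of its significance. A shared site is a pair of summits, 1 from each replicate, that were each other's nearest and at most 100 bp apart. A site was assigned to a gene if it lay inside that gene, or within 100 kb with that gene's end as the nearest end of a protein-coding gene. By this rule 40 of the 51013 shared sites belonged to the 10 receptor genes, and none belonged to more than 1 of them.

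The lists held 107378 summits in replicate 1 and 61172 in replicate 2 on the nuclear chromosomes, and the sources used here do not give the read depth behind them. A score depends on depth, so it ranks summits within 1 list, and a summit of 1 list alone is no difference between the lungs. A pool of whole lungs mixes all cell types of the organ, so the cells in which a site was bound cannot be told apart. Summit lists hold no expression values.

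In WNT signalling, a lipid-modified WNT ligand binds the cysteine-rich domain of a Frizzled protein, a receptor with several membrane spans, and also the single-span protein LRP5 or LRP6. The complex keeps beta-catenin from being degraded, and beta-catenin then acts with TCF and LEF factors in the nucleus. Frizzled proteins also act without beta-catenin, in planar cell polarity. In the fetal lung, WNT signals pass between epithelium and mesenchyme and are needed for lung specification, branching and the growth of smooth muscle.

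The start of transcription was known for Fzd1, Fzd4, Fzd5 and Fzd7, whose promoters were the ones found among the members in the RefSeq promoter table (build GRCm38.p6, the assembly of mm10). The sequences below, each 300 bases from 250 before to 50 after the start, are shown because the Fzd7 and Fzd5 windows hold or touch a shared summit and the Fzd4 window, given for contrast, holds none. They are written 5′ to 3′, and capitals mark the GC box GGGCGG on either strand. The Fzd7 window is chr1:59481897-59482196 on the plus strand, the Fzd5 window chr1:64737701-64738000 on the minus strand and the Fzd4 window chr7:89404116-89404415 on the plus strand.
Fzd7: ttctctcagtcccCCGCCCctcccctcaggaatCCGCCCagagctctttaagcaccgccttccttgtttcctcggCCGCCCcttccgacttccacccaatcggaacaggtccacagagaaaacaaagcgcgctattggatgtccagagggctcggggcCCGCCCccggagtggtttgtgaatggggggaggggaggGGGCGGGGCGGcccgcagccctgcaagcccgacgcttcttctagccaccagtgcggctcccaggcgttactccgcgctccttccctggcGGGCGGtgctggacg
Fzd5: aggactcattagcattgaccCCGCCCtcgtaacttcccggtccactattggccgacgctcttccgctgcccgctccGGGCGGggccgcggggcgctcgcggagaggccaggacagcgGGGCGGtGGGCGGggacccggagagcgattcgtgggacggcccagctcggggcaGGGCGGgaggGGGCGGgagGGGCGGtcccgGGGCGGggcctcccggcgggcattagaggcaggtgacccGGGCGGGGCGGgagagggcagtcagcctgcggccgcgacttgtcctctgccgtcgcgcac
Fzd4: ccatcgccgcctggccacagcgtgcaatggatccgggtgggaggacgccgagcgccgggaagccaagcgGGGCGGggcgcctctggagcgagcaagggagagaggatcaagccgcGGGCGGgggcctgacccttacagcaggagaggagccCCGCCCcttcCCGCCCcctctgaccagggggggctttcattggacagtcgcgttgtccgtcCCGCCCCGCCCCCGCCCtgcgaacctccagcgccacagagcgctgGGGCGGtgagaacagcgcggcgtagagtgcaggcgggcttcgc

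In Fzd7 the summits of both replicates fell on base 258 of this window. In Fzd5 the replicate 1 summit fell on base 288, and the replicate 2 summit lay on the base just after the last one shown. In Fzd1 the nearest shared site lay 167 bp downstream of the start, beyond its window. Fzd5 had 10 GC boxes, Fzd4 had 8 and Fzd7 had 7, while Fzd1 had 0. Of the 32851 promoters in the table, 35.7% hold at least 1 GC box, and 99.4% hold fewer than Fzd7. Some matches overlap, so a longer run of capitals holds more than 1. The forkhead core TAAACA, present in 13.4% of all promoters on either strand, was found in none of the 4 windows, nor was the longer GTAAACA, which contains it and is present in 3.65%. The TCF/LEF core TCAAAG (16.0% of promoters) occurred 1 time, in Fzd1, and the ETS core CCGGAA (14.9%) in none. The Fzd5, Fzd4 and Fzd7 windows were also rich in G and C, with 75.7%, 72.7% and 66.7%. These values were higher than in 96.7%, 93.9% and 85.0% of promoters. Fzd1, with 54.0%, was higher than 53.5% of promoters and so near the middle. A match or its absence concerns these letters only.

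Every receptor gene carried at least 1 shared FOXF1 site. This held for 10 of 10, against 60.7% of all protein-coding genes counted by the same rule. The number of sites ran from 1 at Fzd3 and Fzd8 to 9 at Lrp5, with 8 at Fzd6, 7 at Fzd4, 4 at Lrp6, 3 each at Fzd1 and Fzd5 and 2 each at Fzd2 and Fzd7. The median was 3 per gene, against 1 over all protein-coding genes. The 8 Frizzled genes held 27 sites and the 2 Lrp genes 13. Without the need for a partner, 98 summits of replicate 1 and 56 of replicate 2 were assigned to the 10 genes. These counts are a description, with no test, since the list was chosen by name and set tests were not run. The choice was made with earlier results of these data known, so it was not independent of them.

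Long genes collect more sites, so the counts were also read by length. Of all 7926 protein-coding genes of at most 10 kb, 38.8% had a shared site, with a mean of 0.779 per gene. The 6 receptor genes of that length, Fzd1, Fzd2, Fzd4, Fzd5, Fzd7 and Fzd8, all had one and held 3.0 on average. Of the 13961 genes over 10 kb, 73.2% had a site, with a mean of 2.99. The 4 long receptor genes, Fzd3, Fzd6, Lrp5 and Lrp6, all had one and held 5.5 on average. They span 32044 to 120438 bp, and the class over 10 kb was not divided further. Their length was thus matched only coarsely. Fzd3 had the fewest of these 4, with 1 site in 70023 bp.

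**Figure D1:**
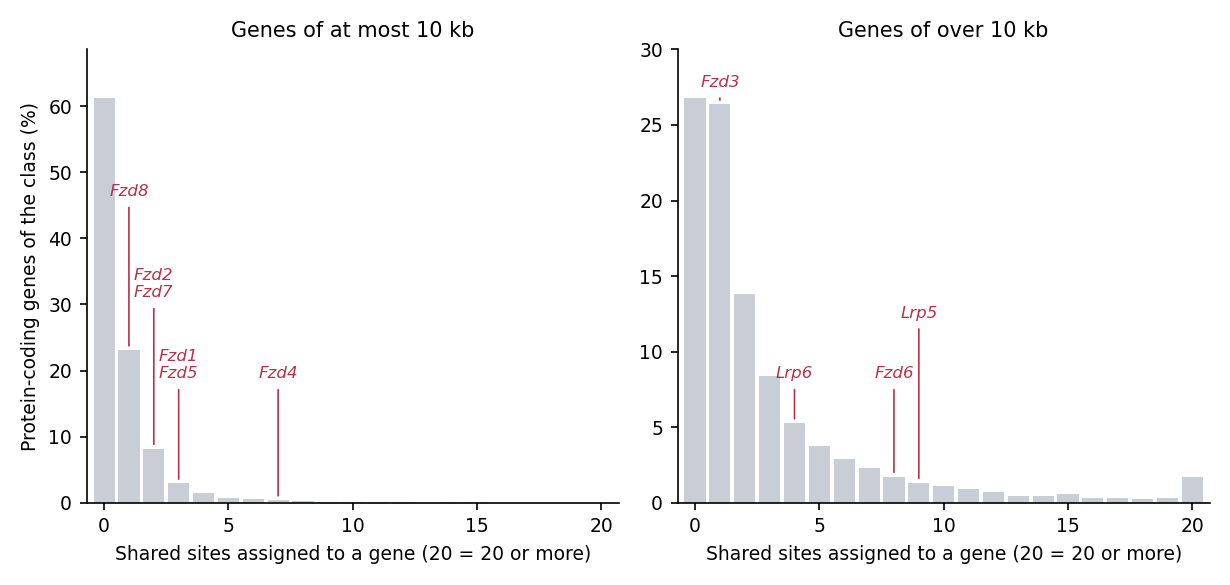
Share of protein-coding genes (%, vertical axis) by the number of shared sites assigned to a gene (horizontal axis; the last bar holds 20 or more), for genes of at most 10 kb (left) and over 10 kb (right); red names mark the receptor genes. Fzd4 with 7 sites stands far to the right among short genes, and Lrp5 with 9 and Fzd6 with 8 lie in the tail of the long ones. At a reach of 5 kb outside a gene, Fzd4 keeps 2 sites, Fzd6 keeps 5 and Lrp5 keeps 9.

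The density of binding around the genes was counted as well. Taking all shared sites inside a gene and within 100 kb on each side, the receptor genes had a median of 3.99 sites per 100 kb, against 2.47 over all protein-coding genes. From the replicate 1 list alone the members' median was 7.93, against 5.07 over all coding genes, and from the replicate 2 list it was 4.58, against 3.02. The density of shared sites was above the median of all genes at 8 of the 10 genes. It ran from 0.984 at Fzd8 and 2.44 at Fzd7 to 4.34 at Fzd5 and 4.37 at Fzd4, and the density at Fzd4 was higher than at 75.5% of coding genes. Many of these sites belong to neighbouring genes, as at Fzd3, where the window held 11 and the gene itself had 1.

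Of the 40 sites, 24 lay inside a receptor gene and 16 outside. The share of 60.0% counts only the receptor gene itself, while 57.9% of all shared sites lay inside any protein-coding gene. Of the 16 outside, 2 lay inside another coding gene, Tmem135, so the 2 shares are not like measures. At least 1 site lay inside 9 of the 10 genes, against 48.1% of coding genes, the exception being Fzd8. By distance to the nearest end of the own gene, 8 sites lay within 1 kb, 13 between 1 and 10 kb, and 19 farther away. The map of sites by gene shows sites packed around Fzd4 and Fzd6 and along the right part of Lrp5.

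**Figure D2:**
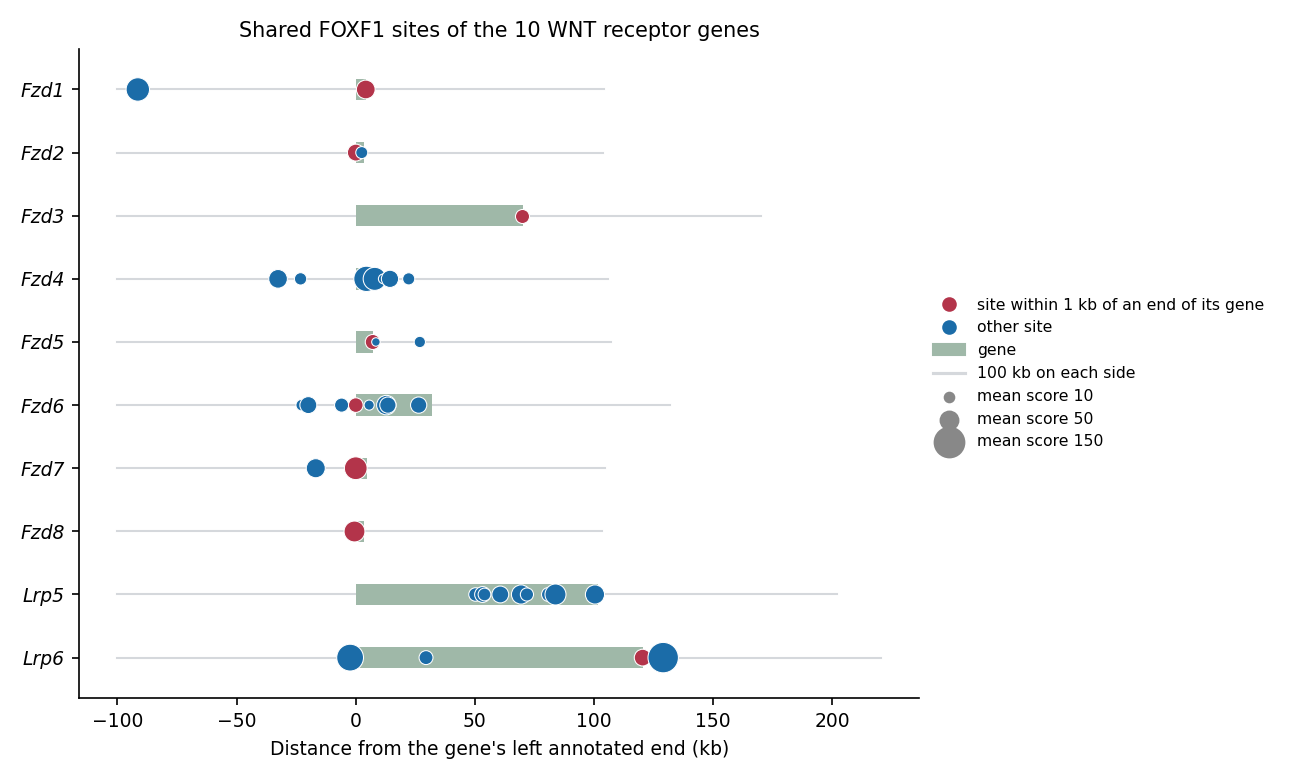
Position of each of the 40 shared sites (circles) in kb from the left annotated end of its gene, 1 row per gene; green bars are the genes, grey lines the 100 kb on each side, and circle area grows with the mean of both scores. Sites within 1 kb of a gene end are red: 8 genes have 1 each, and Fzd4 and Lrp5 have none.

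Fzd1, Fzd2 and Fzd7 form the closest group of related Frizzled proteins, and all act with beta-catenin. Fzd7 (chromosome 1, 59482147 to 59486955) had its highest site at position 59482154, 7 bp downstream of the start. Its scores were 98.5 in replicate 1 and 72.9 in replicate 2, in the top 7.24% and 4.66% of the lists. Its other site lay 16775 bp upstream, with scores of 83.6 and 32.9. The end of the next gene, Gm973, was 34110 bp from the site at the start. In both replicates the site at the start was thus the higher one.

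Fzd1 (chromosome 5, 4753839 to 4758216) was arranged the other way. Its highest site lay far from the gene, at position 4662383, 91456 bp to the left, with scores of 118.8 and 63.4. The next nearest coding gene, Cdk14, a cyclin-dependent kinase, had its end 141001 bp from that site. The site 167 bp downstream of the start had scores of 65.2 and 47.0, and a weak site 1184 bp downstream had 7.27 and 5.60. The far site ranked above the start site in both replicates. It is also the site nearest to the 100 kb limit, and no shared site between 100 and 200 kb had a receptor gene's end as its nearest.

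Fzd2 is known for a part in branching of the lung epithelium. On chromosome 11 it spans 102604431 to 102608058 and had both of its sites inside. The higher, at 102604482, was 51 bp inside the left end, and both replicates placed it on the same base, with scores of 50.2 and 39.0. The other, 1097 bp inside the right end, had 28.8 and 10.2. No site outside was assigned to Fzd2, and the next gene, Gpatch8, ended 48091 bp from its highest site.

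Fzd5 and Fzd8 are close relatives. Fzd5 (chromosome 1, 64730558 to 64737750) had its highest site at 64737706, 44 bp downstream of the start, with scores of 45.6 and 22.2. Its other sites, 1277 bp and 19702 bp upstream, were lower, with 5.62 and 7.62, and with 24.6 and 8.36. The end of Ccnyl1, a cyclin Y-like gene, lay 12060 bp from the highest one. Fzd8 (chromosome 18, 9212856 to 9216201) had a single site, 657 bp to the left of the gene, with scores of 78.1 and 64.5. That site stood in the top 11.2% and 6.68% of the lists, and the next gene, the connexin gene Gjd4, lay 65925 bp away.

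Fzd4, the receptor of the ligand Norrin in vessels as well as of WNT ligands, had the most sites among the 6 short receptor genes. At a reach of 5 kb instead of 100 kb Fzd4 kept 2 sites, as many as Fzd1, Fzd2 and Fzd5. The gene spans 89404366 to 89410110 on chromosome 7, and its 7 sites lay from 32601 bp upstream to 16492 bp beyond its right end. The highest, at 89408858, lay inside the gene 4492 bp downstream of the start, with scores of 136.1 and 78.2 (top 3.24% and 3.81%). A second, 2204 bp beyond the right end, had 112.8 and 62.4.

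The other 5 sites of Fzd4 were lower in both replicates, with scores of 16.5 to 82.5 in replicate 1 and 5.21 to 28.6 in replicate 2. Those at 32601 and 23152 bp upstream also lie inside Tmem135, a membrane protein gene whose right end overlaps the start of Fzd4. They therefore count for both genes. The farthest one on the right lies inside the long noncoding RNA gene AI314278. Neither end of Fzd4 had a shared site within 1 kb, and the end of Tmem135 lay 4155 bp from the highest site.

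Fzd3 and Fzd6 act in planar cell polarity, and Fzd3 also in the growth of axons. They differed in sites. Fzd3 (chromosome 14, 65192441 to 65262463) had 1 site, 88 bp inside its right end, with scores of 31.3 and 26.1. In replicate 1 this was the lowest score among the highest sites of the 10 genes, while in replicate 2 that of Fzd5 was lower, at 22.2. The nearest end of the F-box gene Fbxo16 lay 4243 bp away. Fzd6 (chromosome 15, 39006149 to 39038192) had 8 sites, of which 5 lay inside and 3 to its left, up to 22656 bp away.

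The highest site of Fzd6, at 39018995, lay 12846 bp inside the left end, with scores of 82.5 and 40.0. Another site lay 647 bp from it, with 52.8 and 28.6. The next nearest coding gene, Cthrc1, a secreted protein gene, was 57937 bp from the highest site. The site 19 bp inside the left end of Fzd6 had scores of 31.33 and 31.99 and also lies inside the noncoding gene Gm26704. The remaining 5 sites scored 16.9 to 64.1 in replicate 1 and 7.23 to 25.3 in replicate 2.

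Lrp5 and Lrp6 encode the paired co-receptors, which are close in structure and partly replace each other. Lrp5 is also part of the Norrin receptor with Fzd4. Their sites were laid out differently. Lrp5 (chromosome 19, 3584825 to 3686585) held all of its 9 sites inside the gene, 8.84 per 100 kb of gene. They fell within 50138 bp on the side of the right end, and none lay in the 50262 bp next to the left end. The highest, at 3668657, was 17928 bp inside the right end, with scores of 105.9 and 38.2, and the next gene, 1810055G02Rik, was 39636 bp from it. Next in replicate 1 came sites with 84.8 and 33.8 and, 1360 bp inside the right end, with 81.4 and 36.4. The other 6 scored 34.5 to 58.8 in replicate 1 and 8.96 to 29.4 in replicate 2.

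Lrp6 (chromosome 6, 134446476 to 134566913) had fewer shared sites, 2 inside (1.66 per 100 kb of gene) and 2 outside, but the highest ones of all receptor genes. Counted in 1 list alone, Lrp5 had 15 summits in replicate 1 and 13 in replicate 2, while Lrp6 had 23 and 5. The lower count of Lrp6 thus did not hold in replicate 1. At position 134575507, 8594 bp to the right of Lrp6, the scores were 203.3 and 112.4, in the top 0.667% and 0.817% of the lists. By mean score, which leans on the higher scores of replicate 1, this site ranked 604 among the 51013 shared sites. By the same mean, the highest site of Lrp6 exceeded that of 96.8% of the coding genes with a site. At 134444116, 2360 bp to the left of the gene, the scores were 154.0 and 88.2. The end of the next gene, Bcl2l14, lay 5392 bp from that site. The site 30 bp inside the right end had 51.8 and 35.5, and the one 29496 bp inside the left end had 39.6 and 17.0. In both replicates the 2 outer sites lay above every other site of a receptor gene.

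The summits of the highest Lrp6 site lay 97 bp apart, close to the 100 bp limit, and the gap had a median of 13.5 bp over the 40 sites. Under a limit of 50 bp this site is not shared, and the highest of Lrp6 becomes the one to the left of the gene, with a mean score of 121.1 instead of 157.9. The next neighbour, Mansc1, a membrane protein gene, lay 33700 bp from the highest site. The other sites with gaps over 50 bp were 2 of Fzd1, 2 of Lrp5 and 1 each of Fzd4 and Fzd5.

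**Figure D3:**
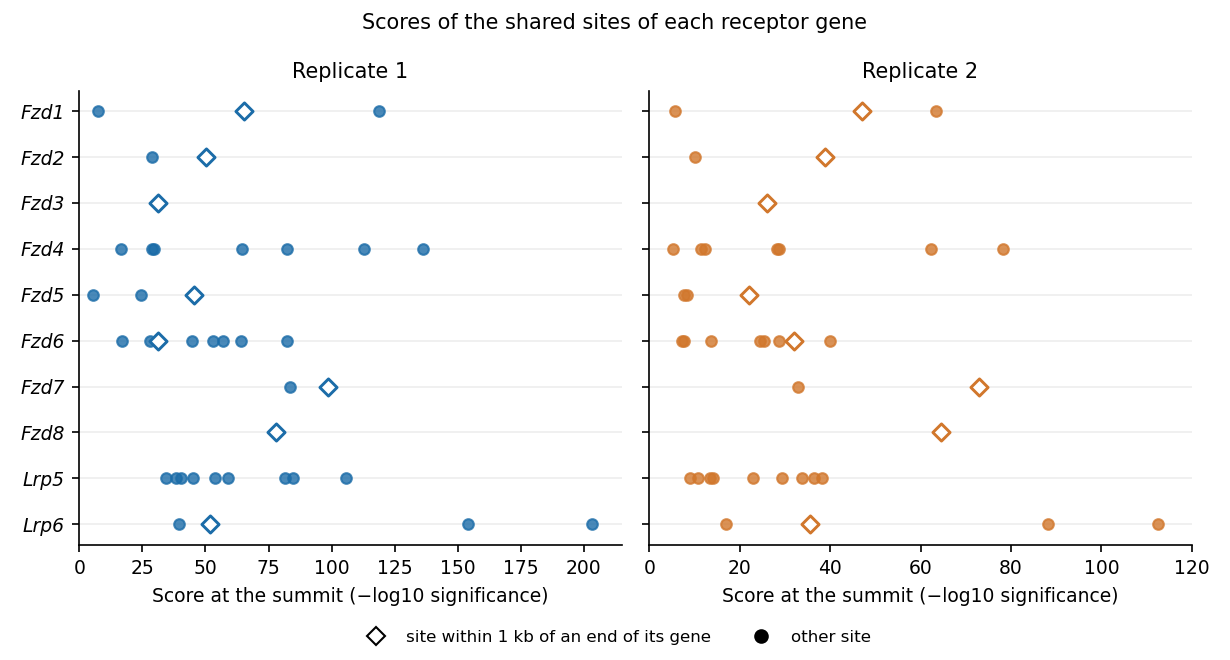
Score of each shared site (−log10 significance, horizontal axis) by gene, in replicate 1 (left) and replicate 2 (right), whose axes differ in range; open diamonds are sites within 1 kb of an end of their gene. The outer sites of Lrp6 are the farthest to the right in both panels, at 203.3 and 154.0 and at 112.4 and 88.2.

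Among the 10000 highest summits of each list, 4 of the 10 genes kept a shared site, namely Fzd1, Fzd4, Fzd7 and Lrp6, against 16.7% of protein-coding genes. Fzd4 and Lrp6 had 2 such sites each, and Fzd1 and Fzd7 had 1 each. The site at the start of Fzd7 was the only one of these 6 within 1 kb of a gene end. Over the 40 sites the median score was 52.3 in replicate 1 and 27.2 in replicate 2, against 44.1 and 19.1 over all shared sites.

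Most of the family had a site near a gene end. At 8 of the 10 genes a shared site lay within 1 kb of an annotated end, against 38.6% of all protein-coding genes. Counted by site the share was close to that of the series, at 20.0% of the 40 sites against 17.2% of all shared sites. The receptor genes also held more sites each, with a mean of 4.0 against 2.19 over all protein-coding genes. Among genes of at most 10 kb the share was 26.6%, and 5 of 6 receptor genes had such a site. Among longer genes it was 45.4%, and 3 of 4 had one. Where the start is known, at Fzd1, Fzd5 and Fzd7, the site lay at the start. For the other 5, namely Fzd2, Fzd3, Fzd6, Fzd8 and Lrp6, the tables used do not tell the start from the end.

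The exceptions, Fzd4 and Lrp5, each had a summit near an end in replicate 2 that was not shared. At Fzd4 it lay at 89403668, 698 bp upstream of the start and inside Tmem135, with a score of 53.8 (top 10.9% of the list). The nearest replicate 1 summit was 1467 bp away, with a score of 11.4. At Lrp5 it lay at 3686515, 70 bp inside the right end, with a score of 45.6 (top 15.3%), and the nearest replicate 1 summit was the shared one 1291 bp away. In the replicate 2 list alone, 10 of 10 receptor genes thus had a summit within 1 kb of an end, against 47.0% of coding genes. In the replicate 1 list 9 of 10 had one, all but Lrp5, against 51.7% of coding genes. The summit of Fzd4 there lay 760 bp beyond the right end, with a score of 9.54, and not at its start.

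The sites near gene ends also held a different place in the order of each replicate, counted in percent from the highest score. All 8 stood higher among the shared sites in replicate 2 than in replicate 1, with a median difference, replicate 2 minus replicate 1, of -15.48 percentage points. The Fzd6 site moved most, from 68.5% down the order in replicate 1 to 29.2% in replicate 2. The Fzd7 site went from 14.7% to 5.35%, and the Fzd8 site from 22.5% to 7.61%. Of the other 32 sites, 13 stood higher in replicate 2. The series as a whole showed the same, with 87.8% of the 8799 shared sites within 1 kb of a gene end higher in replicate 2, against 36.6% of the others, and a median difference of -15.43 percentage points near gene ends. The receptor genes therefore did not stand apart in this, and what it reflects was not tested.

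**Figure D4:**
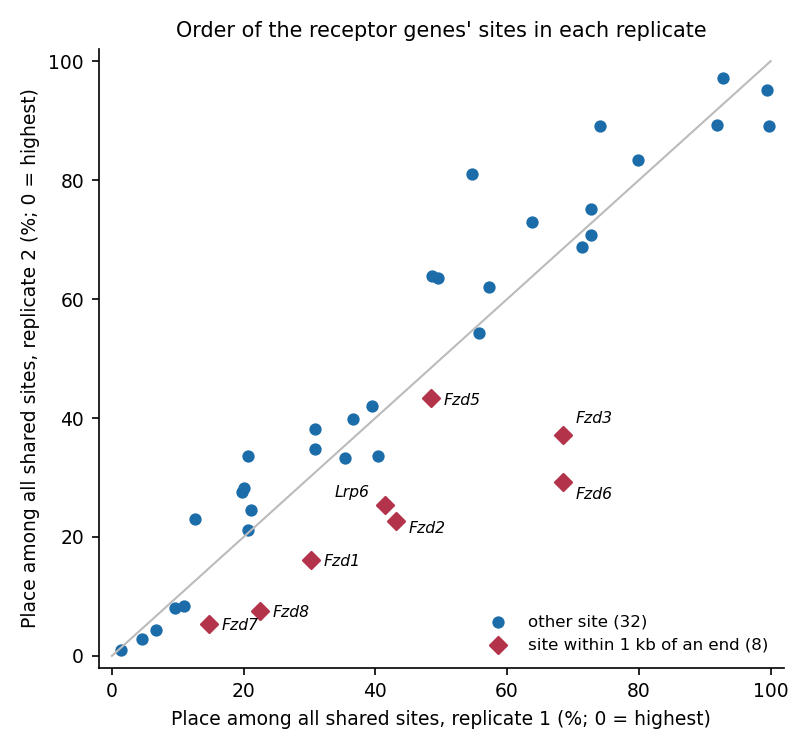
Place of each of the 40 sites in the order of all shared sites by score, in replicate 1 (horizontal) and replicate 2 (vertical), in percent with 0 as the highest; the line marks equal places. The 8 sites within 1 kb of a gene end (red diamonds) all lie below the line, and the others lie on both sides of it.

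Beside the shared sites, 58 summits of replicate 1 alone and 16 of replicate 2 alone were assigned to the receptor genes. Paired summits made up 40 of 98 in replicate 1 and 40 of 56 in replicate 2. Over the whole lists, 51013 of 107378 and 51013 of 61172 were paired, so replicate 1 had the larger unpaired part there too. In both lists the paired share at the receptor genes was below that of the whole list. Most unshared summits of the receptor genes were weak, with median scores of 9.7 and 10.2. Lrp6 took 19 of those of replicate 1, and 18 of them lay inside the gene with scores of 5.07 to 35.2. Replicate 2 had 1 unshared summit at Lrp6, close to the lowest scores of that list. Counted in 1 list alone, Lrp6 thus had 23 summits in replicate 1 and 5 in replicate 2, against 4 shared sites. Fzd4 had 10 unshared summits in replicate 1 and 5 in replicate 2. The highest unshared summit of all, with a score of 60.3 in replicate 2, lay inside Fzd4 at 89407571, 1279 bp from the replicate 1 summit of its highest shared site. Fzd3 and Fzd8 had none in replicate 2. Just beyond the pairing limit lay summit pairs 130 bp apart at Fzd6, 139 bp apart at Fzd5 and 163 bp apart at Fzd4, the last with scores of 31.0 and 22.1.

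Other genes of the pathway were read by the same rule in 5 lists. All 13 other receptors and relatives had a site, with a median of 4 per gene. Ror1, a receptor tyrosine kinase for WNT5A, had 15, and Ryk, another WNT receptor of the kinase family, had 12. Of the remaining Frizzled genes, Fzd10 had 6 sites and Fzd9 had 1, and neither had one within 1 kb of an end. All 17 genes of the cytoplasm and nucleus had a site as well, with a median of 6. Tcf7l2 had 16, and Lef1, like it a partner of beta-catenin, had 10, as did Axin2, a feedback inhibitor.

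In the lists of secreted proteins and of receptor turnover, the share of genes with a site was 64.3% to 81.8%, beside 60.7% of all coding genes. Of 21 genes of ligands and their secretion, 14 had a site, with a median of 1. Wnt7b, a ligand of the lung epithelium, had 6, and Wnt2b and Wnt5b had 4 each. Wnt1, Wnt3, Wnt6, Wnt8a, Wnt8b, Wnt9b and Wnt16 had none. Of 14 secreted antagonists and their receptors, 9 had a site, with Dkk2 at 9 and Dkk3 and Kremen1 at 6, while Dkk1, Sfrp4, Sfrp5, Sostdc1 and Notum had none. Of 11 genes of receptor turnover, R-spondins and Norrin, 9 had one, with Tspan12 at 14 and Lgr5 at 7, and Rspo1 and Rspo4 had none. These counts take no account of gene length.

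Sites within 1 kb of a gene end were counted in the same lists. Such a site was present at 10 of 13 other receptors and relatives, 12 of 17 genes of the cytoplasm and nucleus, and 8 of the 10 receptor genes. It was present at 7 of 21 genes of ligands, 2 of 11 of receptor turnover and 1 of 14 antagonists, against the 38.6% of coding genes. No test of these differences was made, and the lists were drawn up with earlier results of these data known.

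**Figure D5:**
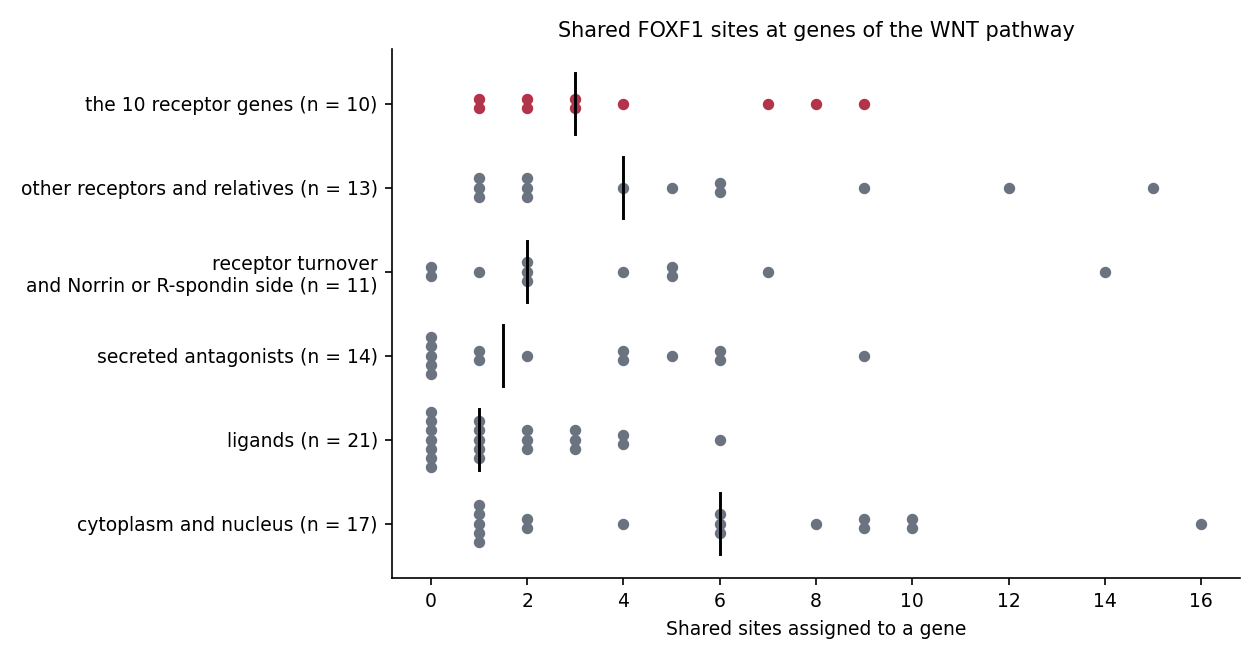
Shared sites assigned to each gene (points) of the 10 receptor genes (red) and of 5 lists of other WNT pathway genes (grey), with the median of each list as a black line. The receptor genes run from 1 to 9 with a median of 3, and the lists of antagonists, ligands and receptor turnover include genes at 0.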

How the data were processed

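FOXF1 summits of 2 replicates were analysed. The authors called peaks with MACS2 on mm10, per the submitters' processing notes, each replicate against the control, per the peak names. The deposited score is a −log10 value by which the authors' caller rates each summit. The sources used here do not give whether it rests on a p or a q value, the MACS2 version and options, the aligner, the treatment of duplicates, or the depth. Replicate numbers name pools, and no depth or interval could be derived.

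Summits of the autosomes and sex chromosomes were paired, with all others left out, and assigned as the report says, in Python 3.11.15 with numpy 2.4.6 and pandas 2.3.3, and the code was tested on simulated data. Genes came from a RefSeq table of GRCm38.p6 that gives ends but no strand or exons, so no site was placed in an exon, an intron or an untranslated region. Promoters came from a RefSeq table of the same build. No genome or protein sequence was used, so sites outside promoters were not searched for motifs and the planned protein identities were not computed. Positions are 1-based. There is 1 condition, so no test between groups was made. Shares over all coding genes stand beside the counts of receptor genes with a site, but not beside every count of sites or summits. All 10 members were named. Of each pathway list, the genes with the most sites (the leading 2, with ties) and those with none were named. Members and lists were chosen with earlier results of these data known. Alternatives changed the pairing distance, score minimum, replicates, reach and assignment.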

Additional observations from a re-analysis of the deposited data

How the results depend on the processing

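All 10 receptor genes had a site, and the number with one within 1 kb of an end stayed between 7 and 10, under pairing limits of 50 and 200 bp, a score minimum of 10, either replicate alone, a reach of 50 or 5 kb, and assignment by the nearest end only. At 50 bp the site at the start of Fzd1 was no longer shared. A reach of 5 kb left 28 sites instead of 40. Fzd4 fell from 7 to 2, Fzd6 from 8 to 5 and Fzd7 from 2 to 1. Fzd1 and Fzd5 each fell from 3 to 2, and Lrp6 from 4 to 3. Keeping the 10000 highest summits of each list left 6 sites at 4 genes, 1 gene with a site near an end, a median of 0.485 sites per 100 kb and 6 unshared summits, since far fewer summits enter. With 1 list alone, the number of assigned summits ran from 56 (replicate 2) to 98 (replicate 1) instead of 40 sites. The median density ran from 4.58 to 7.93 per 100 kb. A score minimum of 10 left 41 unshared summits instead of 74. Under the other pairing limits and score filters, the mean score of a gene's highest site was unchanged wherever the gene kept a site, except at Lrp6. At 50 bp it fell there from 157.9 to 121.1, where the SD of the 2 scores was 64.2. That SD also holds any difference in scale between the lists. A score filter removes lower summits first, so an unchanged highest site says little about stability. With 1 list alone a comparison with the SD carries no information where that list's highest summit belongs to the highest shared site. There the SD of 2 scores exceeds the distance of either from their mean. At Lrp5 the highest replicate 2 summit was the unshared one at 3686515, with 45.6, against 38.2 at its highest shared site. The mean scores of highest sites were not recomputed for other reaches, and at 50 kb the highest site of Fzd1 is out of reach. Lists of summits without read counts limit every count to the authors' threshold. No paired analysis was possible because there is 1 group with a list, and no fit between groups. No alternative was run for the promoter motifs.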

Other observations

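The Norrin receptor of vessels is made of Fzd4, Lrp5 and the tetraspanin Tspan12. These genes were picked out here after their values were seen. Fzd4 had 7 shared sites, Lrp5 had 9 and Tspan12, a gene of 108206 bp on chromosome 6, had 14, with a mean score of 138 at its highest. Ndp, the gene of the ligand Norrin on the X chromosome, had 2, with a mean score of 41.5 at its highest. No end of these 4 genes had a shared site within 1 kb, as is true of most coding genes, of which 38.6% had one. In the replicate 2 list, Fzd4 and Lrp5 had 2 summits each within 1 kb of an end.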
